A study of Mus musculus with 36 samples.

Results

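Transcripts of 8 genes of the NADPH oxidase and the oxidative burst were followed in epididymal, that is visceral, white adipose tissue (visWAT) and liver of mice. The genes were Cybb, Cyba, Ncf1, Ncf4, Rac2, Nox4, Nos2 and Hmox1, picked by symbol from a table of 56748 genes, and all 8 were found. The 18 male mice were 16 weeks old at the start, were bred on a C57BL/6J background and were kept for 16 weeks on either normal chow (NCD) or high-fat diet (HFD). MlklAdi-KO mice carry floxed Mlkl, a necroptosis effector, and Adipo-Cre, which is active in mature adipocytes, so the other cells of the tissue keep the gene. WT littermates carry the floxed alleles too but no Cre, which means that the floxed alleles were common to all groups. Each of the 8 groups of tissue, genotype and diet held 4 mice on NCD or 5 mice on HFD, each mouse gave 1 library per tissue, and animals were not pooled. Levels are given as FPKM, a read count scaled by gene length and by a library size that the authors set.

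The phagocyte NADPH oxidase passes electrons from NADPH to oxygen and makes superoxide in the oxidative burst of macrophages and neutrophils. Cybb (gp91phox, NOX2) and Cyba (p22phox) form its membrane core, and Ncf1 (p47phox), Ncf4 (p40phox) and the small GTPase Rac2 join the core when the cell is activated. Nox4 is a related catalytic subunit that needs Cyba but no cytosolic partner and is found outside phagocytes, Nos2 makes nitric oxide, and Hmox1 degrades haem and is induced by oxidative stress and haem. In obese adipose tissue, macrophages gather around adipocytes, and bulk RNA of the tissue then holds more of their transcripts. In such bulk libraries, fewer cells of a type and less RNA per cell cannot be told apart.

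Libraries held 20875463 to 30322171 reads on genes. Mlkl, the targeted gene, ranged from 1.96 to 2.72 FPKM in the 9 visWAT libraries labelled MlklAdi-KO and from 3.91 to 6.28 in the visWAT libraries labelled WT, except that the library labelled WT NCD mouse 182 was at 2.29, which goes against its label. The visWAT library of WT NCD mouse 183 held 247986 FPKM of 9 seminal vesicle and epididymis genes in sum, against 326.668 in mouse 182 and at most 81.9716 in any other visWAT library. Summed adipocyte markers, which include Adipoq and Plin1, were at 4945.24 FPKM or more in visWAT, and summed hepatocyte markers, which include Alb, were at 55561.6 or more in liver, so that each tissue showed the markers of its label. In liver, 2 libraries stood apart in the genes described here, those of WT NCD mouse 182 and MlklAdi-KO HFD mouse 152. Some of the results that rest on them are given with and without them, and the others only with them.

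All 8 genes are protein coding, and their positions on GRCm39 are those of the deposited annotation. Cybb (ENSMUSG00000015340) lies on the minus strand of chrX:9301491-9354010, Cyba (ENSMUSG00000006519) on the minus strand of chr8:123151515-123159669 and Ncf1 (ENSMUSG00000015950) on the minus strand of chr5:134248907-134258479. Ncf4 (ENSMUSG00000071715, plus strand) and Rac2 (ENSMUSG00000033220, minus strand) share chromosome 15, at 78129001 to 78146780 and 78443367 to 78456983, with 296.587 kb between them. Nox4 (ENSMUSG00000030562) is at chr7:86895304-87047918, Nos2 (ENSMUSG00000020826) at chr11:78811613-78851080 and Hmox1 (ENSMUSG00000005413) at chr8:75820249-75827217, all on the plus strand. Ncf1 overlaps Gtf2ird2, which lies on the opposite strand, and since the counting is not stated to use strand, reads from the overlap cannot be assigned with certainty.

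The promoters of 4 of the 8 genes are held in the RefSeq table used here, and they are printed because 3 of these genes, Cybb, Cyba and Ncf1, are subunits that changed together with diet in visWAT, whereas Nox4 had the opposite order of tissues. Each runs from 250 bases before to 50 bases after a RefSeq start (table of GRCm38.p6), was matched letter for letter to GRCm39 and is written 5′ to 3′ on the strand of the gene. Capitals mark the matches to the motifs named after the sequences.
Cybb: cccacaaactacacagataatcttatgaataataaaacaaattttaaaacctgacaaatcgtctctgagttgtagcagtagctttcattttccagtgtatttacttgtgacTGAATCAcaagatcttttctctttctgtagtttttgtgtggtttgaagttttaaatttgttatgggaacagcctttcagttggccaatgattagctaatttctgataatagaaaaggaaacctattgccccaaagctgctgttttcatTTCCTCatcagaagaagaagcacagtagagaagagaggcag
Cyba: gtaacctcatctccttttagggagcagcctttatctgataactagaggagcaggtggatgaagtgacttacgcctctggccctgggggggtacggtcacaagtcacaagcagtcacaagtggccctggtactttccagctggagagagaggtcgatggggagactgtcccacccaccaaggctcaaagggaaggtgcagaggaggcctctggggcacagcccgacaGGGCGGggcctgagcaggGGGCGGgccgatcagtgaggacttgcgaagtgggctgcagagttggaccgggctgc
Ncf1: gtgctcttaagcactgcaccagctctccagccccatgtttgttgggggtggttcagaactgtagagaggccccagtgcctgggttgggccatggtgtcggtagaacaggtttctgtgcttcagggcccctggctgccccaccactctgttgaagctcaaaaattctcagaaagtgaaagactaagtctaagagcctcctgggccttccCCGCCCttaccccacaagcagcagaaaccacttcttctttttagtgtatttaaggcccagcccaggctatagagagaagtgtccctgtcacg
Nox4: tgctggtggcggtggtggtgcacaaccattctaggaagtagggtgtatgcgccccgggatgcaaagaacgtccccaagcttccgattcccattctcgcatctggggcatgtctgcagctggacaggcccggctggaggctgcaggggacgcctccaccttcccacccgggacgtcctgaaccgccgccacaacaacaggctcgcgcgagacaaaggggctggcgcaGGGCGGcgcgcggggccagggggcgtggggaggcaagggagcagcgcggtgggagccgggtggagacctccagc
These stretches are chrX:9335514-9335813 (minus strand, inside the deposited gene of Cybb, whose annotated 5′ end lies farther out), chr8:123159630-123159929 (minus), chr5:134258430-134258729 (minus) and chr7:86895607-86895906 (plus, inside the deposited Nox4 gene). Both strands were searched for 4 motifs, and none of the motifs overlapped another in these windows. GAGGAA, the core bound by the myeloid factor PU.1, was found in Cybb, once and on the opposite strand, and is held by 28.1% of 32544 promoters of the same length. That match covers bases 260 to 265 of the window and so lies after the RefSeq start. The AP-1 motif TGANTCA was found in Cybb too, and is held by 7.79% of promoters. The GC box GGGCGG was found in Cyba (2 matches), Ncf1 and Nox4, and is held by 35.9% of promoters. No match to TGACNNNGC, the core of the antioxidant response element (12.4% of promoters), lay in these windows. Ncf4, Rac2, Nos2 and Hmox1 are named only.

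**Figure D1:**
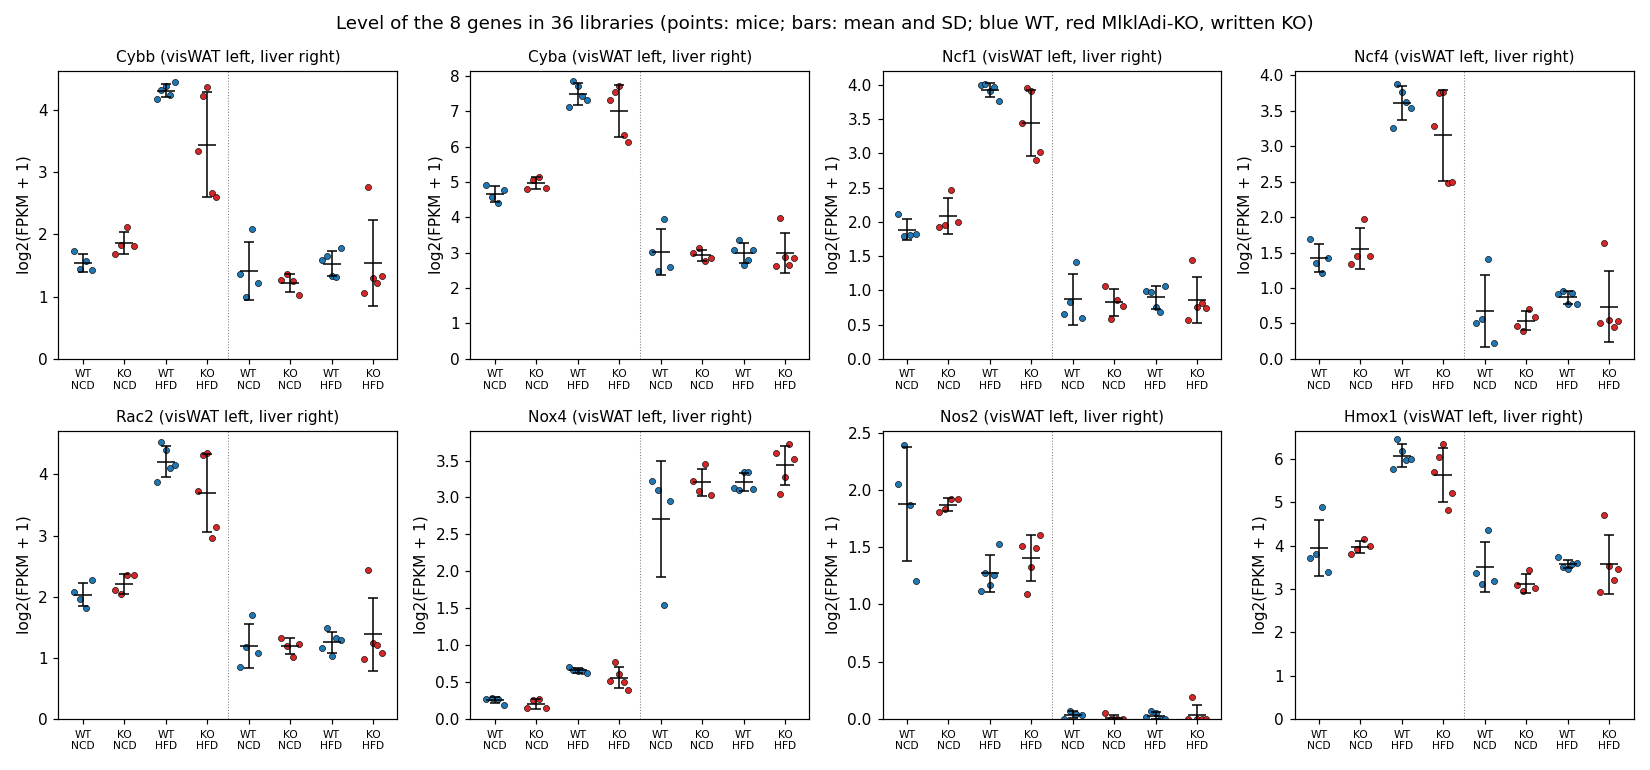
Levels of the 8 genes in 36 libraries as log2(FPKM + 1), 1 panel per gene, with visWAT at the left and liver at the right of the dotted line. Points are mice and bars are the mean and SD. Cybb, Cyba, Ncf1, Ncf4, Rac2 and Hmox1 were highest in visWAT of HFD-fed mice, whereas Nox4 was at 1.91 FPKM or more in liver and at 0.702 or less in visWAT and Nos2 was near 0 in liver.

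The first question was which of these genes respond to HFD in visWAT. In WT mice, 5 of 5 subunits of the phagocyte oxidase and Hmox1 rose, Nos2 fell, and in total 7 of the 7 genes that passed the filter of a mean of 0.5 FPKM changed (limma on log2(FPKM + 1), Benjamini-Hochberg adjusted p under 0.05, 37.8% of 14161 genes called in either direction). In MlklAdi-KO mice, the same 7 genes passed the filter and were called with the same signs, where 43.7% of 14026 genes were called. Over all genes, 21.9% were higher and 15.8% lower on HFD in WT visWAT.

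Cybb, the electron-transferring subunit, was at 2.34, 1.70, 1.98 and 1.70 FPKM in visWAT of the 4 WT NCD mice (mice 165, 180, 182 and 183). The 5 WT HFD mice (154, 155, 161, 162 and 164) gave 17.1, 18.9, 19.8, 17.8 and 20.8 FPKM. Every HFD mouse was above every NCD mouse, and the HFD mice were close to each other, with a range of 1.22 times. The mean rose from 1.93 ± 0.302 (SD, n = 4) to 18.9 ± 1.5 FPKM (SD, n = 5), 9.79-fold, and the log2 fold change was 2.77 ± 0.09 (SE, limma, adjusted p = 2.0e-07). In MlklAdi-KO mice, Cybb was at 2.21, 2.54, 3.32 and 2.51 FPKM on NCD (mice 166, 179, 197 and 199) and at 9.14, 17.8, 19.8, 5.33 and 5.05 on HFD (mice 151, 152, 153, 156 and 157). The groups did not overlap here either, but the HFD mice spread over 3.91 times, with mice 152 and 153 at the level of WT mice and mice 156 and 157 far lower. The log2 fold change was 1.58 ± 0.38 (SE, limma, adjusted p = 0.00893).

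Cyba, the partner that stabilises Cybb and Nox4, was the most abundant of the 8 in visWAT of every group by mean. It was at 29.4, 22.8, 20.1 and 26.1 FPKM in WT NCD visWAT and at 138, 233, 208, 170 and 160 in WT HFD visWAT, in the mouse order given for Cybb. No NCD mouse reached the lowest HFD mouse, and the log2 fold change was 2.82 ± 0.17 (SE, limma, adjusted p = 2.49e-06), from a mean of 24.6 ± 4.02 to 182 ± 38.2 FPKM (SD). MlklAdi-KO mice had 26.9, 32.1, 34.5 and 27.7 FPKM on NCD and 159, 186, 207, 79.0 and 69.1 on HFD. Mice 156 and 157 were again the lowest on HFD, still above all NCD mice, and the log2 fold change was 2.04 ± 0.33 (SE, limma, adjusted p = 0.00152). Cyba was thus 10.1 to 15.4 times Cybb in WT NCD visWAT and 7.66 to 12.3 times in WT HFD visWAT, ranges that overlap.

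Ncf1, the organiser that carries the cytosolic complex to the membrane, was at 3.32, 2.47, 2.51 and 2.52 FPKM in WT NCD visWAT and at 14.9, 15.1, 14, 14.7 and 12.6 in WT HFD visWAT. The HFD values lay within 1.20 times of each other and well above the NCD values, with a log2 fold change of 2.05 ± 0.09 (SE, limma, adjusted p = 3.62e-07). In MlklAdi-KO mice, Ncf1 was at 2.78, 2.86, 4.55 and 3.0 FPKM on NCD and at 9.90, 14.4, 14, 6.45 and 7.08 on HFD. The groups were apart, and the log2 fold change was 1.36 ± 0.24 (SE, limma, adjusted p = 0.00234).

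Ncf4, whose protein binds phosphoinositides on phagosomes, gave 2.23, 1.56, 1.32 and 1.68 FPKM in WT NCD visWAT and 8.57, 13.7, 12.7, 11.3 and 10.7 in WT HFD visWAT. It rose by a log2 fold change of 2.20 ± 0.14 (SE, limma, adjusted p = 2.86e-06), without overlap. MlklAdi-KO values were 1.54, 1.72, 2.94 and 1.74 FPKM on NCD against 8.80, 12.5, 12.6, 4.56 and 4.65 on HFD, a log2 fold change of 1.60 ± 0.31 (SE, limma, adjusted p = 0.00328). Ncf1 and Ncf4 encode subunits of 1 complex, and their FPKM ratio was 1.49 to 1.91 in WT NCD visWAT and 1.10 to 1.74 in WT HFD visWAT.

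Rac2, the GTPase restricted to blood cells, was at 3.23, 2.88, 2.53 and 3.83 FPKM in WT NCD visWAT and at 13.7, 22, 20.03, 16.1 and 16.9 in WT HFD visWAT. All HFD mice were higher, with a log2 fold change of 2.18 ± 0.14 (SE, limma, adjusted p = 3.61e-06). In MlklAdi-KO mice the values were 3.29, 3.14, 4.09 and 4.12 FPKM on NCD and 12.3, 18.9, 19.4, 6.83 and 7.78 on HFD, a log2 fold change of 1.49 ± 0.29 (SE, limma, adjusted p = 0.00381). Mouse 156 was the lowest of the HFD mice for Rac2, as it was for Ncf1, Ncf4 and Hmox1.

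Nox4 was the scarcest of the 8 in visWAT in every group, and it did not reach the filter in the diet comparisons. It was at 0.209, 0.224, 0.205 and 0.143 FPKM in WT NCD visWAT and at 0.634, 0.587, 0.565, 0.565 and 0.542 in WT HFD visWAT, which rests on 37 to 63 and 144 to 193 reads per library. The groups did not overlap, and the difference on the log2(FPKM + 1) scale was 0.40 ± 0.03 (SE, p = 0.0159 in an exact two-sided permutation test, which 5 against 4 mice cannot go below). MlklAdi-KO mice had 0.104, 0.196, 0.208 and 0.106 FPKM on NCD and 0.424, 0.702, 0.533, 0.416 and 0.312 on HFD, again apart, with a difference of 0.35 ± 0.07 (SE, exact permutation p = 0.0159). Over the 7 exact tests of genes below the filter, both had an adjusted exact p of 0.0556, and in limma without the filter the adjusted p were 0.000269 and 0.0129. Summed hepatocyte markers were at 860.671 to 1977.37 FPKM in WT NCD and 23.6605 to 203.962 in WT HFD visWAT, and at 1070.05 to 1271.54 in MlklAdi-KO NCD and 59.7646 to 1426.34 in MlklAdi-KO HFD visWAT, and their part in the values of Nox4 was not tested.

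Nos2, the inducible nitric oxide synthase, went the other way. It was at 3.13, 4.25, 2.65 and 1.30 FPKM in WT NCD visWAT and at 1.17, 1.42, 1.25, 1.4 and 1.89 in WT HFD visWAT, and the groups overlapped through mouse 183, whose library held seminal vesicle transcripts. It fell by 0.61 ± 0.21 on the log2 scale (SE, limma, adjusted p = 0.0450), a call that was kept in 2 of 9 fits that leave out 1 library and that was lost on the TPM scale (log2 fold change −0.40, adjusted p = 0.433) and without the filter (adjusted p = 0.0918). TPM divides by the summed FPKM of a library. That sum was 564718 in mouse 183 and 227793 to 309820 in the other visWAT libraries, and its part in the TPM values was not tested. Without mouse 183, the log2 fold change was −0.83 (limma, adjusted p = 0.0012), and without mouse 180 it was −0.44 (limma, adjusted p = 0.115). In MlklAdi-KO mice the fall was clearer, from 2.49, 2.57, 2.79 and 2.78 FPKM on NCD to 1.85, 1.13, 1.52, 1.82 and 2.05 on HFD, with no overlap. There the log2 fold change was −0.46 (limma, adjusted p = 0.00585), and it was called in all 9 fits that leave out 1 library.

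Hmox1, the inducible haem oxygenase, was at 12.1, 13.0, 28.6 and 9.49 FPKM in WT NCD visWAT, the highest being mouse 182, whose Mlkl goes against its label. WT HFD mice had 53.8, 87.4, 71.6, 61.5 and 62.9 FPKM, all higher, and the log2 fold change was 2.13 ± 0.28 (SE, limma, adjusted p = 0.00031). Without mouse 182 it was 2.44 ± 0.16 (SE, limma, adjusted p = 1.49e-05). MlklAdi-KO mice had 13.1, 14.2, 16.8 and 14.9 FPKM on NCD and 51.1, 65.2, 80.7, 27.3 and 36.4 on HFD, with a log2 fold change of 1.66 (limma, adjusted p = 0.00191).

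**Figure D2:**
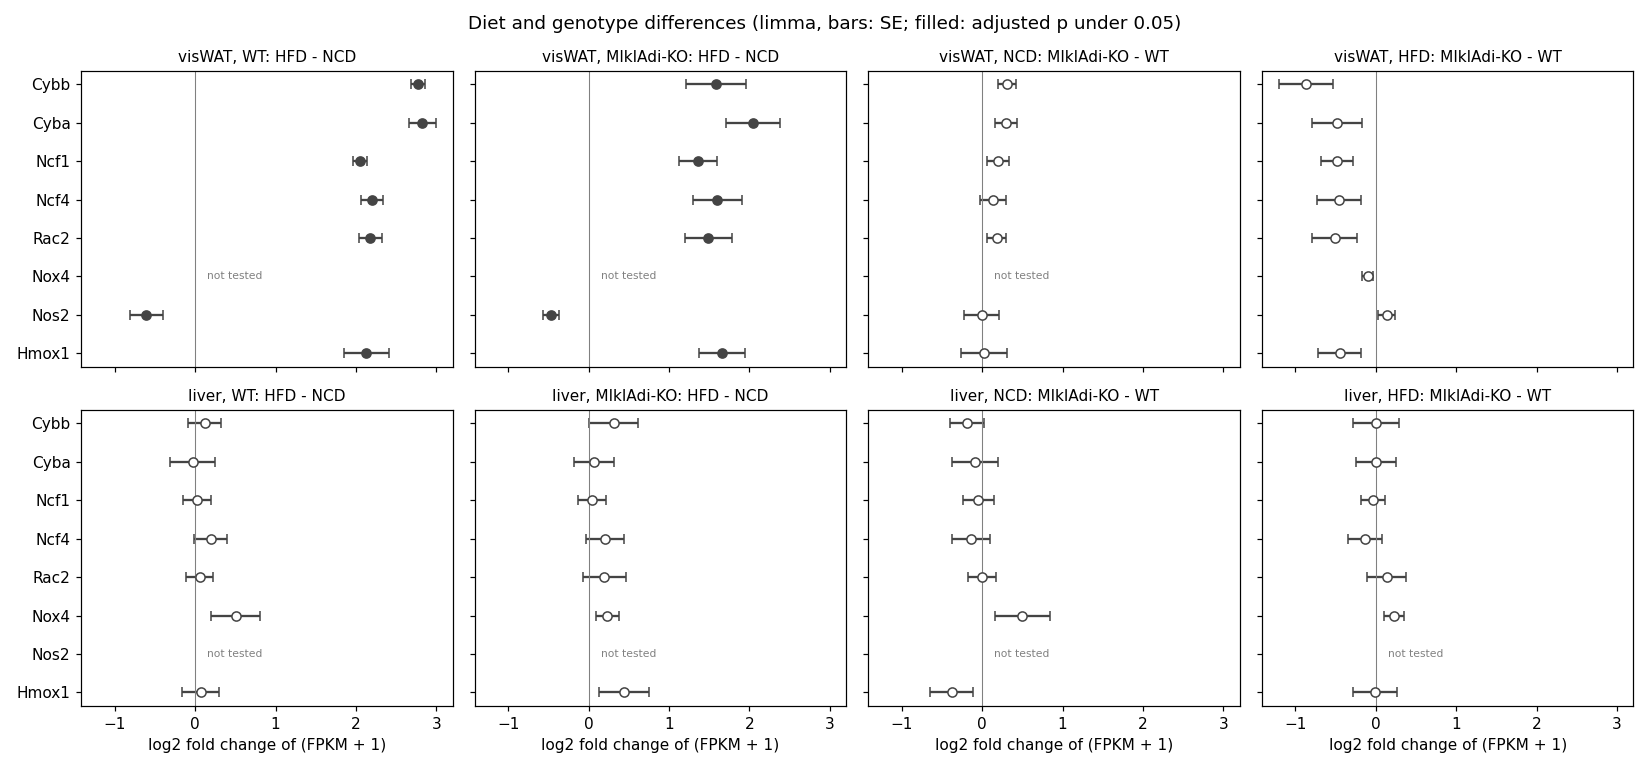
Log2 fold change of FPKM + 1 for the 8 genes in the diet and genotype comparisons of visWAT (top) and liver (bottom), with SE as bars. Filled points passed an adjusted p of 0.05 in limma and genes under the filter are marked as not tested. Filled points stand in both visWAT diet panels and in no genotype or liver panel.

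Partners of the phagocyte oxidase were examined as a list of 11 other genes. On HFD, 8 of the 11 rose and none fell in WT visWAT, with a median log2 fold change of 0.78 against −0.01 over all genes, and 8 of 11 rose in MlklAdi-KO visWAT (median 0.50). Over all genes, 3108 of 14161 were called higher in WT visWAT and 3272 of 14026 in MlklAdi-KO visWAT. Vav1, which loads Rac with GTP, rose from 0.977 ± 0.105 to 9.02 ± 1.93 FPKM in WT mice (SD, log2 fold change 2.32 ± 0.13 SE, limma, adjusted p = 1.76e-06). Arhgdib, which holds Rac2 in the cytosol, rose from 12.9 ± 2.0 to 36.7 ± 11.1 FPKM in MlklAdi-KO mice (limma, adjusted p = 0.00132). Rac1, the GTPase of most other cells, had a log2 fold change of 0.45 ± 0.08 in WT mice (SE, limma, adjusted p = 0.0017), smaller than that of Rac2, though the difference between these genes was not tested. Rap1a, Hvcn1 and Rac3 were not called in either genotype.

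Of 9 further NADPH oxidase genes, 8 were in the table and 1 passed the filter in each diet comparison, Duoxa1, the maturation factor of DUOX1. It rose from 0.335 ± 0.18 to 3.62 ± 0.19 FPKM in WT visWAT (SD, log2 fold change 1.80 ± 0.09 SE, limma, adjusted p = 8.75e-07) and from 0.515 ± 0.16 to 4.14 ± 0.88 FPKM in MlklAdi-KO visWAT (limma, adjusted p = 0.000121). Among 10 peroxidase and nitric oxide genes, 6 passed the filter in WT visWAT and 2 rose, where 3108 of all 14161 genes were called higher. These were Arg1, the arginase that shares the substrate of Nos2, from 0.241 to 1.64 FPKM (limma, adjusted p = 0.000629), and Gch1, which makes the cofactor of Nos2, from 0.659 to 1.32 FPKM (limma, adjusted p = 0.00171). Gch1 was the 1 gene of that list called in MlklAdi-KO visWAT, where 43.7% of 14026 genes were called in either direction.

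Of 11 haem and iron genes tested, 9 rose and none fell in WT visWAT, where 21.9% of all genes were called higher and 15.8% lower. In MlklAdi-KO visWAT, 7 rose and none fell, where 23.3% of all genes were called higher and 20.3% lower. Blvra, the biliverdin reductase that acts after Hmox1, rose from 9.79 ± 3.2 to 25.1 ± 3.1 FPKM in WT mice (SD, limma, adjusted p = 0.000354) and from 9.08 ± 1.1 to 24.7 ± 3.9 in MlklAdi-KO mice (SD, limma, adjusted p = 0.000182). The non-inducible isoenzyme Hmox2 rose from 11.6 ± 0.95 to 21.0 ± 1.6 FPKM in WT mice (SD, limma, adjusted p = 5.81e-05), and the haem transporter Slc48a1 from 68.7 ± 5.1 to 136 ± 11 FPKM in MlklAdi-KO mice (SD, limma, adjusted p = 0.000153). Targets of NRF2 and antioxidant enzymes were called in both directions. In WT visWAT, 3 of 21 rose, where 21.9% of all genes were called higher, and 5 fell, where 15.8% were called lower. Among those that rose were the extracellular superoxide dismutase Sod3 and Nfe2l2 itself, and among those that fell were Nqo1 and Sod1. On the TPM scale 3 rose and 0 fell, where 3805 of all 14161 genes were called higher and 227 lower. The summed FPKM that TPM divides by was largest in WT NCD mouse 183, whose library held seminal vesicle transcripts. In MlklAdi-KO visWAT, 8 of 21 rose and 4 fell, where 23.3% of all genes were called higher and 20.3% lower. Nqo1 was again lower, from 3.96 ± 0.16 to 2.28 ± 0.42 FPKM (SD, limma, adjusted p = 0.001).

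Cell type markers changed in the same libraries. For scale, 3108 of all 14161 genes were called higher and 2239 lower on HFD in WT visWAT. In MlklAdi-KO visWAT, 3272 of all 14026 genes were called higher and 2853 lower. Of 14 macrophage markers, 13 rose in WT visWAT (median log2 fold change 2.57) and 10 in MlklAdi-KO visWAT (median 1.54), none of them was at 0, and their summed level ranged from 225.861 to 339.527 FPKM on NCD and from 2095.73 to 3118.05 on HFD in WT mice. In MlklAdi-KO mice the sum ranged from 269.017 to 503.088 FPKM on NCD and from 829.491 to 2929.44 on HFD. Summed neutrophil markers were at 2.60 to 4.07 FPKM in WT NCD and 10.3 to 15.2 in WT HFD visWAT, and at 3.27 to 6.21 and 8.82 to 15.3 in MlklAdi-KO visWAT, without overlap between diets in either genotype. Summed fibroblast markers were at 278.456 to 402.238 FPKM in WT NCD and 755.935 to 940.207 in WT HFD visWAT, also without overlap, and at 361.192 to 426.048 and 390.712 to 992.612 in MlklAdi-KO visWAT, where the diets overlapped. Of the 8 adipocyte markers, 1 rose and 4 fell in WT visWAT, and the sum had a median of 15561.1 FPKM on NCD and 5602.88 on HFD. The part of these cell types in the changes of the 8 genes was not tested.

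Each gene was therefore also expressed as a percentage of the macrophage marker sum of its own library, as a description. The sum itself was higher on HFD in both genotypes, so a gene that rose less than the sum is lower in this percentage. For Cybb this was 0.647% to 0.754% in WT NCD and 0.607% to 0.872% in WT HFD visWAT, so that the 2 ranges overlapped after a 9.79-fold rise in mean level. The ranges of Cyba and Ncf4 overlapped as well. Ncf1 went from 0.862% to 1.09% down to 0.482% to 0.712%, Rac2 from 0.871% to 1.46% down to 0.652% to 0.707%, and Hmox1 from 3.55% to 9.84% down to 2.47% to 2.80%, each without overlap. Nos2 was at 0.496% to 1.88% on NCD and at 0.0431% to 0.0791% on HFD, again without overlap, and Nox4 was lower on HFD too. In MlklAdi-KO mice, the ranges on NCD and HFD overlapped for every gene except Nos2, which was at 0.554% to 0.927% on NCD and 0.0423% to 0.247% on HFD.

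**Figure D3:**
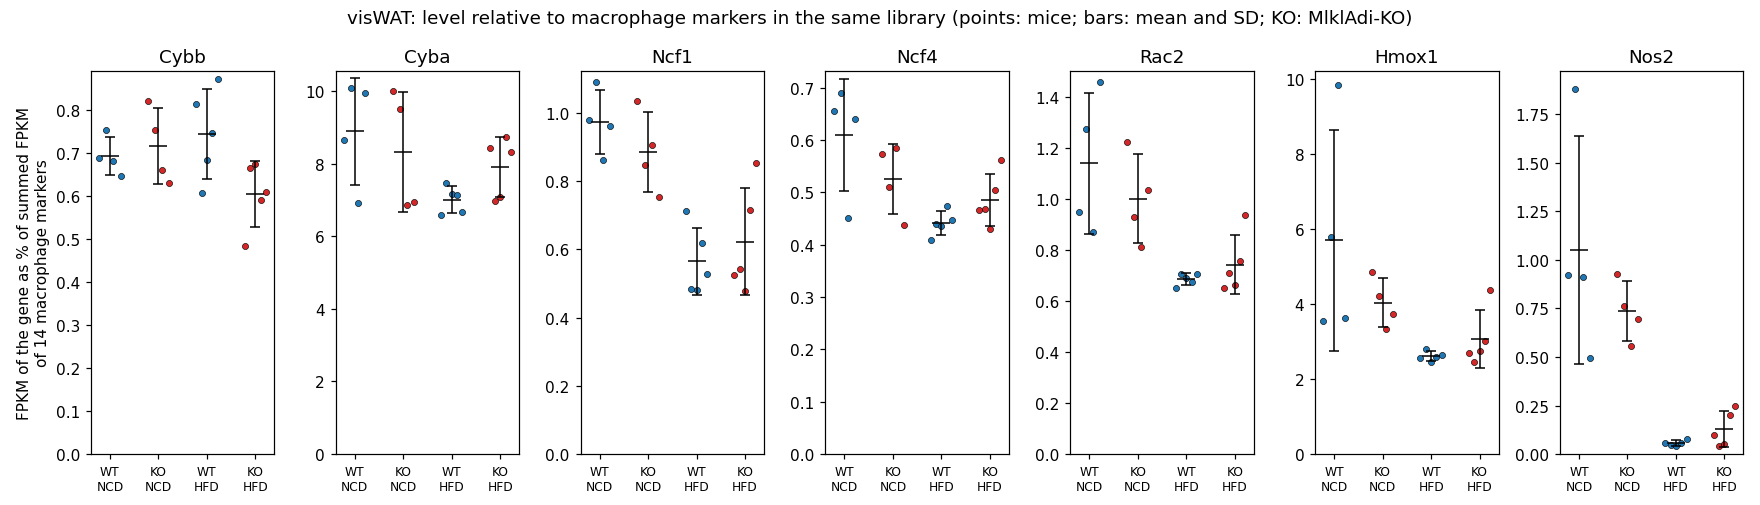
FPKM of 7 of the genes in visWAT as a percentage of the summed FPKM of 14 macrophage markers in the same library. Points are mice and bars are the mean and SD of 4 mice on NCD and 5 on HFD. Cybb overlapped between all 4 groups, whereas Nos2 on HFD was below every NCD mouse in both genotypes. The marker sum itself was higher on HFD, so a gene that rose less than the sum is lower here. In FPKM, Nos2 overlapped between diets in WT mice.

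The second question was whether MlklAdi-KO mice differ from WT mice in these genes within a diet. On HFD, none of the 8 was called in visWAT, where 0.0215% of 13963 genes were, and the groups overlapped for every one. Cybb had the largest difference, with a mean of 11.4 ± 6.94 against 18.9 ± 1.5 FPKM (SD, n = 5 each) and a log2 fold change of −0.87 ± 0.34 (SE, limma, adjusted p = 0.221). Cyba (−0.48 ± 0.31), Ncf1 (−0.49 ± 0.20), Ncf4 (−0.46 ± 0.27), Rac2 (−0.51 ± 0.28) and Hmox1 (−0.45 ± 0.27) had lower means in MlklAdi-KO mice, with adjusted p in limma from 0.223 to 0.35. For Nox4 the log2 fold change was −0.10 ± 0.07 and for Nos2 it was 0.14 ± 0.11 (SE, limma, adjusted p = 0.397 and 0.438). In the fits that leave out 1 mouse, the log2 fold change of Cybb ran from −1.10 to −0.66 and its adjusted p from 0.0826 to 0.42.

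The MlklAdi-KO mice on HFD were not alike. Of the 5 mice, 151, 156 and 157 were below the lowest WT HFD mouse for Cybb, Ncf1, Rac2 and Hmox1, and 156 and 157 were below it for Cyba and Ncf4. Mice 152 and 153 lay within the WT range for these 6 genes, and mice 156 and 157 were the lowest 2 for 7 of the 8 genes. Nos2 was the exception, since mouse 157 was the highest at 2.05 FPKM and mouse 152 the lowest at 1.13. The coefficient of variation of Cybb was 60.8% among the 5 MlklAdi-KO mice and 7.95% among the 5 WT mice. Macrophage marker sums were low in the same mice, at 903.877 and 829.491 FPKM in mice 156 and 157 against 2666.16 and 2929.44 in mice 152 and 153. Adipocyte sums had the reverse order, with 12046.9 and 11434.0 FPKM in mice 156 and 157, 10111.0 in mouse 151, and 5952.77 and 5546.25 in mice 152 and 153. As a percentage of the macrophage sum, Cybb was at 0.484% to 0.674% in these 5 mice and at 0.607% to 0.872% in WT HFD mice.

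**Figure D4:**
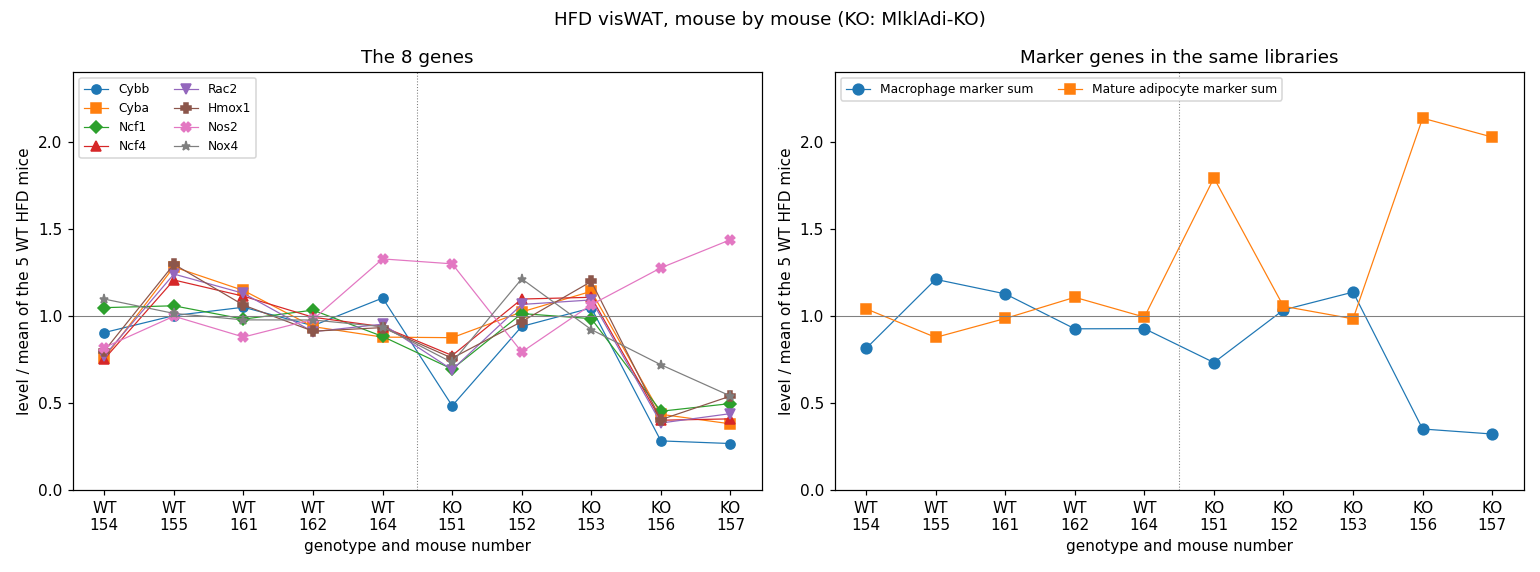
HFD visWAT of each mouse, as the level divided by the mean of the 5 WT HFD mice, for the 8 genes (left) and for summed macrophage and adipocyte markers (right). Lines join the mice only to guide the eye. Cybb, Cyba, Ncf1, Ncf4, Rac2 and Hmox1 were low in MlklAdi-KO mice 156 and 157, where the adipocyte sum was 12046.9 and 11434.0 FPKM.

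On NCD, none of the 7 genes tested in visWAT was called between genotypes, and limma called 0% of 14063 genes (0 genes at the adjusted threshold, 528 at an unadjusted p under 0.05, with DESeq2 7 higher and 1 lower, with edgeR 0). Cybb had a log2 fold change of 0.31 ± 0.11 (SE, limma, adjusted p = 0.916), with 1.93 FPKM in WT and 2.65 in MlklAdi-KO mice, the opposite sign of HFD. The interaction of genotype with diet called 0% of 14136 genes as well (1867 at an unadjusted p under 0.05, with DESeq2 2 higher and 19 lower, with edgeR 0). Its estimate was −1.18 ± 0.41 for Cybb (SE, limma, adjusted p = 0.326), −0.78 ± 0.39 for Cyba, −0.69 ± 0.27 for Ncf1 and −0.47 ± 0.42 for Hmox1 (SE, adjusted p from 0.35 to 0.611), and a smaller rise on HFD in MlklAdi-KO mice was therefore not shown at this number of mice. DESeq2, edgeR and the TPM scale called none of the 8 in these comparisons either. Without WT NCD mice 182 and 183, limma again called none of them, where it called 2 genes higher and 1 lower of 13931 on NCD and 0 of 14033 in the interaction. Cybb was then at 0.27 ± 0.14 on NCD and −1.14 ± 0.49 in the interaction (SE, limma, adjusted p = 0.9997 and 0.518).

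In liver, the question was whether the response to diet is shared by a second organ. None of the 7 genes tested was called between diets in WT liver, where 25.3% of 13330 genes were called, or in MlklAdi-KO liver, where 22.2% of 13149 were. Cybb was at 1.56, 0.984, 3.22 and 1.33 FPKM in WT NCD liver and at 2.0, 2.14, 1.5, 1.48 and 2.45 in WT HFD liver. These groups overlapped, and the mouse at 3.22 was 182, with a log2 fold change of 0.12 ± 0.21 (SE, limma, adjusted p = 0.717). MlklAdi-KO liver had 1.4, 1.57, 1.37 and 1.03 FPKM on NCD and 1.08, 5.75, 1.45, 1.33 and 1.53 on HFD, the value of 5.75 being mouse 152.

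Mouse 152 was the highest of the MlklAdi-KO HFD livers for 7 of the 8 genes and the lowest for Nox4. Besides Cybb, it had 14.7 FPKM of Cyba against 5.18 to 6.33 in the other 4 livers, 4.43 of Rac2 against 0.966 to 1.36 and 25.2 of Hmox1 against 6.57 to 10.5. Its summed macrophage markers were at 167.908 FPKM against 44.5859 to 69.3956, its Kupffer cell markers at 146.775 against 38.7491 to 66.6051 and its neutrophil markers at 7.89393 against 0.445962 to 1.48969. In visWAT the same mouse lay within the WT range for Cybb and Cyba.

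WT NCD mouse 182 was the highest of its group in liver for 6 of the 8 genes. Cyba was at 14.4 FPKM against 4.63 to 7.15 in the other 3 livers, Hmox1 at 19.5 against 7.68 to 9.28, and Nox4 at 1.91 against 6.72 to 8.38. Macrophage markers summed to 158.871 FPKM against 51.6299 to 68.6728 and fibroblast and stellate markers to 134.31 against 30.9939 to 40.241, but Kupffer cell markers to 39.1997 against 45.1633 to 59.9293. Without this library, Ncf4 and Hmox1 were called higher on HFD in WT liver, with log2 fold changes of 0.44 (limma, adjusted p = 0.013) and 0.35 (limma, adjusted p = 0.00912). Without mice 182 and 183, the same 2 of 7 genes were called, where 1389 of 13286 genes were called higher and 1368 lower. Ncf4 was at 0.419, 0.476, 1.65 and 0.168 FPKM in WT NCD liver, where 0.168 stands for 6 reads, and at 0.886, 0.951, 0.708, 0.900 and 0.703 in WT HFD liver. Hmox1 was at 9.28, 7.68, 19.5 and 8.15 FPKM on NCD and at 12.3, 10.3, 10.1, 11.0 and 11.1 on HFD, so that each HFD liver was above the 3 other NCD livers.

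Genotype called none of the 7 genes tested in HFD liver (0.197% of 13215 genes called) or NCD liver (0.00758% of 13193), and the interaction with diet none either (0.0151% of 13248). All groups overlapped. The largest log2 fold changes were 0.50 ± 0.34 for Nox4 and −0.38 ± 0.26 for Hmox1 in NCD liver (SE, limma, adjusted p = 0.996 for both), and WT mouse 182 was at the end of the range for each. Without that library they were 0.11 for Nox4 and −0.10 for Hmox1. In HFD liver, Cybb had means of 2.23 ± 1.98 and 1.91 ± 0.418 FPKM in MlklAdi-KO and WT mice (SD, n = 5 each), and 1.35 ± 0.194 in MlklAdi-KO mice without mouse 152 (n = 4).

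Nox4 was the liver gene of the group. It was at 8.38, 7.56, 1.91 and 6.72 FPKM in WT NCD liver, 7.75, 7.61, 9.14, 9.13 and 7.69 in WT HFD liver, 8.38, 7.53, 9.97 and 7.21 in MlklAdi-KO NCD liver and 11.2, 7.30, 8.71, 12.2 and 10.4 in MlklAdi-KO HFD liver. All these livers, mouse 182 included, were above the highest visWAT library, at 0.702 FPKM. Nox4 was 3.14 to 6.18 times Cybb in WT HFD liver and 0.0260 to 0.0371 times Cybb in WT HFD visWAT, FPKM being scaled by gene length. Nos2 was near the floor of detection in liver, with 0 to 12 reads per library, 0 reads in 10 of the 18 and at most 0.141 FPKM.

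**Figure D5:**
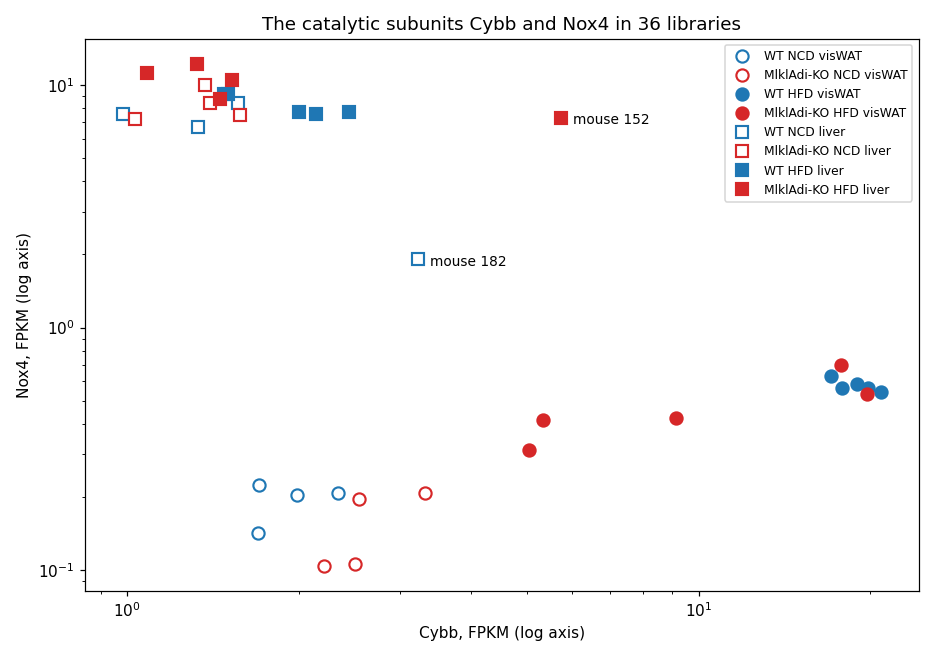
FPKM of Cybb against FPKM of Nox4 on log axes in 36 libraries, with circles for visWAT, squares for liver, open symbols for NCD, filled symbols for HFD, blue for WT and red for MlklAdi-KO. Liver libraries lie at the top left and visWAT libraries at the bottom, with HFD visWAT of WT mice at 17.1 to 20.8 FPKM of Cybb. The livers of WT NCD mouse 182 and MlklAdi-KO HFD mouse 152 lie apart from the other livers.

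The last question was how visWAT and liver of the same mice compare. RNA of the tissues was extracted with different kits, so tissue and extraction cannot be told apart, and the scaling of the deposited FPKM differed too, since the median log2 difference over all genes was −0.04 to −0.01 in the deposited values and 0.52 to 0.95 on the TPM scale. No gene of the 8 changed its direction between these scales in the 4 tissue comparisons. In WT NCD mice, Cyba, Ncf1, Ncf4, Rac2 and Nos2 were higher and Nox4 lower in visWAT, 6 of 8 called where 65.5% of 14544 genes were. Cybb was not called, with means of 1.93 in visWAT and 1.77 FPKM in liver and a log2 fold change of 0.13 ± 0.22 (SE, limma, adjusted p = 0.608). Ncf4 was called with an adjusted p of 0.0246 in limma, which became 0.0541 with the mouse as a block and 0.0842 with edgeR. Its call was lost without mouse 165, 180 or 183 (limma, adjusted p from 0.0995 to 0.142) and kept without mouse 182 (log2 fold change 1.06, limma, adjusted p = 0.000727). Hmox1 went from an adjusted p of 0.325 in limma to 0.0203 with the block and 0.0297 without mouse 182. In MlklAdi-KO NCD mice, all 8 were called (7 higher, Nox4 lower, 77.9% of 14441 genes called), although Cybb was not when all 36 libraries shared 1 fit (adjusted p = 0.0624).

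On HFD, 7 of the 8 were higher in visWAT and Nox4 was lower, both in WT mice (84.6% of 14666 genes called) and in MlklAdi-KO mice (80.3% of 14526). Cyba was 25.7-fold and Cybb 9.88-fold higher in WT visWAT, while Nox4 was 14.3-fold lower by the ratio of means. For Nox4 the log2 fold changes were −2.45 ± 0.34 and −2.55 ± 0.06 in WT mice on NCD and HFD and −3.0 ± 0.10 and −2.88 ± 0.13 in MlklAdi-KO mice (SE, limma, adjusted p of 0.000277 or less).

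The effect of diet differed between tissues for 7 of the 8 genes in WT mice, where 40.0% of 14746 genes had such a difference, and for 6 of 8 in MlklAdi-KO mice, where 40.6% of 14571 had. In WT mice, the difference of the log2 fold changes, visWAT minus liver, was 2.65 ± 0.23 for Cybb, 2.85 ± 0.34 for Cyba, 2.02 ± 0.19 for Ncf1, 2.0 ± 0.26 for Ncf4, 2.12 ± 0.23 for Rac2 and 2.06 ± 0.38 for Hmox1 (SE, limma, adjusted p of 0.000415 or less), and −0.60 ± 0.23 for Nos2 (adjusted p = 0.0447). The call of Nos2, which was near the floor of detection in liver, was kept in 2 of 9 fits that leave out 1 mouse. It was lost with the mouse as a block (limma, adjusted p = 0.0581), on the TPM scale (limma, adjusted p = 0.538) and with a pseudocount of 0.1 (limma, adjusted p = 0.132). It was also lost with edgeR (adjusted p = 0.675) and DESeq2 (adjusted p = 0.638). For Nox4 the difference was −0.10 ± 0.33 (SE, limma, adjusted p = 0.832), but 0.29 (limma, adjusted p = 0.0329) without mouse 182. In MlklAdi-KO mice, Cybb missed the threshold at 1.27 ± 0.52 (SE, limma, adjusted p = 0.0588) and passed it with the mouse as a block (adjusted p = 0.0163). The 5 genes called higher there had differences from 1.22 to 1.98. Of these, Cyba, Ncf1 and Ncf4 were called in all 9 fits that leave out 1 mouse, Rac2 in 5 of 9 (lost without mice 166, 179, 151 and 153) and Hmox1 in 3 of 9 (kept without mice 152, 156 and 157, and at an adjusted p of up to 0.093 in limma otherwise). Cybb was called without mice 152, 156 and 157, with an adjusted p in limma of 0.0127, 0.0455 and 0.0412. Ncf4 and Rac2 were lost with edgeR (adjusted p = 0.175 and 0.099) and DESeq2 (adjusted p = 0.108 and 0.0514), and Hmox1 with edgeR (adjusted p = 0.0792) and on the TPM scale (adjusted p = 0.0536). Nos2 was called lower in all 9 fits that leave out 1 mouse. It was not called with edgeR (adjusted p = 0.217), with DESeq2 (adjusted p = 0.221) or in limma with a pseudocount of 0.1 (adjusted p = 0.0862). Nox4 was at 0.12 ± 0.17 in MlklAdi-KO mice (SE, limma, adjusted p = 0.597) but at 1.35 with edgeR (adjusted p = 0.00494) and with DESeq2 (adjusted p = 0.000357), and at 0.92 in limma with a pseudocount of 0.1 (adjusted p = 0.0156), so that its difference between tissues depends on the scale.

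Ranked by mean level, Cybb, Cyba, Ncf1, Ncf4 and Rac2 had the same top 2 groups, WT HFD visWAT and then MlklAdi-KO HFD visWAT, whose mice overlapped, and a gap below them to the next group. For Cybb, Rac2 and Hmox1, 1 pair of neighbouring groups in the order was apart, and for each other gene 2 pairs were. The ranges of the other neighbours overlapped, which is a description and not a test, and such overlaps were not counted over all genes. For Cybb and Rac2, MlklAdi-KO HFD liver reached 5.75 and 4.43 FPKM through mouse 152, and 1.53 and 1.36 FPKM without it. For Hmox1 the 1 gap lay between WT HFD liver and MlklAdi-KO NCD liver, which had the lowest mean. HFD visWAT of MlklAdi-KO mice, at 27.3 FPKM or more, overlapped with WT NCD visWAT only through mouse 182 at 28.6, and without that library WT NCD visWAT reached 13.0 and MlklAdi-KO NCD visWAT 16.8 FPKM, which leaves a gap below HFD visWAT for Hmox1 too. Within visWAT, the order of the genes on NCD in WT mice was Cyba, Hmox1, Rac2, Nos2, Ncf1, Cybb, Ncf4 and Nox4, and on HFD Cybb stood at the third place and Nos2 at the place before Nox4.

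Over the 18 visWAT libraries, the genes whose log2(FPKM + 1) was most like each member were looked up among 11150 genes, as a description with no test, since diet shapes these libraries and they share their scaling. For Cybb these were Dock2, Adcy7 and Arhgap30 (Pearson r = 0.997, 0.997 and 0.996), for Cyba Spi1, Cotl1 and Matk (0.997, 0.997 and 0.996) and for Ncf1 Itgb2, Adam8 and Itgam (0.992, 0.991 and 0.991). Ncf4 was most like Cd37, Myo1f and Cd300c2 (0.997, 0.996 and 0.995), Rac2 like Efhd2, Coro1a and Grn (0.997, 0.996 and 0.996) and Hmox1 like Lamp1, Grb2 and Fam234a (0.992, 0.991 and 0.988). Spi1 encodes PU.1, Itgb2 and Itgam the chains of the integrin Mac-1, Coro1a an actin-binding protein of leukocytes and Lamp1 a membrane protein of lysosomes. Over the 18 livers, Nox4 was most like Slc10a1, the bile acid transporter of hepatocytes, with Sult2a8 and Mup3 next (0.954, 0.95 and 0.95), and Cybb was most like Pld4, Slc11a1 and C1qb (0.972, 0.967 and 0.966). Mice 152 and 182 had the 2 highest livers for Cybb. For Nox4, mouse 182 had the lowest liver, at 1.91 FPKM against 6.72 or more in the others. The r values without these livers were not computed. Nos2 in visWAT was most like Gimap8, Tbc1d20 and Pald1 (0.941, 0.928 and 0.928).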

How the data were processed

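RNA-seq of 36 libraries, visWAT and liver of 18 mice, was analysed. Libraries were made from polyadenylated RNA. Trimming by fastp, alignment by HISAT2 (mm39) and counting by featureCounts 1.5.0-p3 were done by the authors. Strandedness and annotation release are not given in the sources used here. The deposited table gives FPKM for each gene in each library, as the authors computed them, with gene lengths in bases, and raw counts for the genes of their comparison tables. These tables also hold the authors' own fold changes and p-values, and 72 further columns of per-sample values, none of which were used. FPKM turned back into whole reads, to within 0.01, for 100% of values, and the library size behind them, divided by the reads on genes, was 0.737 to 0.812 for liver and 1.01 to 1.4 for visWAT. Between replicates, the chi-square per gene was 9.82 or higher, so that no library was counted as a repeat. P-values measure the spread between mice.

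Groups and mouse numbers came from the labels. limma 3.58.1 (R 4.3.3) with an empirical Bayes trend was run on log2(FPKM + 1) for genes whose mean over the compared libraries reached 0.5 FPKM, with Benjamini-Hochberg adjustment over all genes tested and a threshold of 0.05, in 16 comparisons. Fold changes on this scale understate changes of low genes. Members under this filter had an exact permutation test (two-sided, scipy 1.17.1), whose smallest p is 0.0159 for 5 against 4 mice, 0.00794 for 5 against 5 and 0.0286 for 4 against 4. All 8 genes were described in every comparison. From each pathway list, the 2 called genes per direction with the smallest adjusted p were named, except 1 item that is not reported here, and a few others are named after their values were seen. For genes most alike, the 3 with the highest Pearson r per tissue were taken. The genes and lists were chosen with earlier results of these data known. The scripts were tested on simulated data. As alternatives, the pseudocount was set to 0.1, the filter was dropped or raised to 1, and the TPM scale, edgeR 4.0.16 and DESeq2 1.42.0 on the recovered reads, all libraries in 1 fit, leaving out libraries and the mouse as a block were used. The same number in visWAT and liver is the same animal, and the deviations of its 2 libraries from their group means correlated with r from −0.0516 to 0.223.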

Additional observations from a re-analysis of the deposited data

Results flagged for a closer look

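Of 64 sets of 4 or 5 libraries (8 genes in 8 groups), 10 had a mouse far from the others by Dixon's ratio. Chance gives about 1 in 20 for independent sets, but these sets share libraries, so the count cannot be judged against that rate. The liver of MlklAdi-KO HFD mouse 152 accounted for 6 of them, as the highest for Cybb (5.75 FPKM), Cyba (14.7), Ncf1 (1.71), Ncf4 (2.11), Rac2 (4.43) and Nos2 (0.141). The macrophage, Kupffer cell and neutrophil marker sums were also highest in that liver. In liver, WT NCD mouse 182 was the lowest for Nox4 (1.91 FPKM), and MlklAdi-KO NCD mouse 166 was the highest for Nos2 (0.0373 FPKM, from 3 reads). In both groups flagged for Nos2, the other livers were at 0 FPKM, so any reads in 1 liver give such a flag. In visWAT, Ncf1 was highest in WT NCD mouse 165 (3.32 FPKM) and in MlklAdi-KO NCD mouse 197 (4.55).

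The response to HFD differed between visWAT and liver by the interaction in limma. In WT mice the difference of log2 fold changes was 2.65 for Cybb, 2.85 for Cyba, 2.02 for Ncf1, 2.0 for Ncf4, 2.12 for Rac2, 2.06 for Hmox1 and −0.60 for Nos2. In MlklAdi-KO mice it was 1.98 for Cyba, 1.32 for Ncf1, 1.4 for Ncf4, 1.29 for Rac2, 1.22 for Hmox1 and −0.49 for Nos2. Nos2 was near the floor of detection in liver, and its call was lost in both genotypes with edgeR and DESeq2. Most macrophage markers rose on HFD in visWAT, as these genes other than Nos2 did, and their part in the differences was not tested.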

How the results depend on the processing

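The number of the 8 genes called moved by more than 1.5 times in the WT liver diet comparison and in the tissue-by-diet comparison of MlklAdi-KO mice. In WT liver, the diet comparison went from 0 to 2 called genes without WT NCD mice 182 and 183, with a range of 0 to 2 over the fits that leave out 1 library. Over all 13286 genes of the fit without these 2 mice, 1389 were called higher and 1368 lower. The tissue-by-diet comparison in MlklAdi-KO mice went from 6 to 3 with edgeR, which called 2516 of 14571 genes higher and 2571 lower. Of 42 genes found as most alike over both tissues, 18 stayed on the TPM scale. The 42 include the liver genes of Cyba, Ncf1, Ncf4, Rac2 and Hmox1, which are not named here. Nox4 changed sign in the tissue-by-diet comparison of WT mice, from −0.10 to 1.09 with edgeR (adjusted p = 0.0454), 1.12 with DESeq2 (adjusted p = 0.0209), 0.33 without mice 182 and 183 (limma, adjusted p = 0.0222) and 0.29 without mouse 182 (limma, adjusted p = 0.0329, from −0.27 to 0.29 over the fits that leave out 1 mouse), and the cause was not tested. With the mouse as a replicate block, 7 genes were called in the tissue-by-diet comparison of MlklAdi-KO mice and 6 in that of WT mice, and 6 between tissues in WT NCD mice. In the same order, these fits called 3070 higher and 2672 lower of 14571 genes, 2982 and 2383 of 14746, and 4327 and 4662 of 14544. Over all genes, DESeq2 called 96 higher and 65 lower between genotypes in HFD visWAT, where limma called 2 and 1, and 148 and 114 in HFD liver, where limma called 17 and 9, and the TPM scale changed the split of diet calls in WT visWAT from 3108 higher and 2239 lower to 3805 and 227. TPM divides by the summed FPKM of a library, which was 564718 in visWAT of WT NCD mouse 183, and the part of that library in the split was not tested. Depth limits Nos2 in liver and Nox4 in visWAT, which rest on few reads, and 4 to 5 mice per group leave genotype differences of the size seen here unresolved.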
